A study of Caenorhabditis elegans with 6 samples.

Results

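The 10 genes described here, lin-35, efl-1, dpl-1, lin-9, lin-37, lin-54, lin-53, lin-13, lin-61 and hpl-2, encode subunits of the DREAM complex of Caenorhabditis elegans and other proteins of the synMuv B class. They were taken by name, through WormBase gene identifiers, from a table of 46940 features, and all 10 were present and passed the filter on low counts that left 15956 genes for testing. The libraries came from whole wild-type N2 worms without treatment, kept on nematode growth medium at 20 °C, with 3 libraries from worms at day 10 and 3 from L4 larvae, the last larval stage. The deposited headers of all 6 libraries carry the prefix Ev, whose meaning was not resolved here. The labels name neither the event from which day 10 was counted nor any step to remove progeny, and no young adults were sampled, so larval-to-adult differences and differences with adult age cannot be told apart. The labels do not say whether the 3 libraries of each age had separate cultures as their source, and the p-values below cover the spread between these libraries alone, which may be technical.

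DREAM takes its name from its parts: a DP protein, a retinoblastoma-like pocket protein, an E2F protein and the MuvB core. It binds the promoters of many cell-cycle and germ line genes and in most cells keeps them low, with E2F–DP and the MuvB subunit LIN-54 touching DNA and the pocket protein LIN-35 bridging them. The synMuv B genes are named for a vulval phenotype: loss of 1 of them gives extra vulvae when a gene of the parallel synMuv A class is also lost. Mutants of several of them also express germ line genes in somatic tissue, and in the worm's germ line EFL-1 and DPL-1 are needed for the programme of oocyte genes.

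All 10 genes were higher at day 10 than in L4, with fold changes from 2.48 for lin-9 to 6.67 for lin-54. The genes lin-54 and efl-1 rose most, and dpl-1, whose product also touches DNA, rose 4.92-fold. The MuvB subunit lin-9 and the heterochromatin-linked genes lin-13, lin-61 and hpl-2 rose least, by 2.48-fold to 2.85-fold. In edgeR's quasi-likelihood test the Benjamini-Hochberg adjusted p-values, taken over all genes tested, ran from 4.1e-09 for lin-35 to 2.5e-07 for lin-61. Of all genes tested 40.5% were called higher at day 10, 29.1% were called and at least 2-fold higher, and 85.4% were called in either direction, so a call by itself sets few genes apart. The median log2 fold change was 2.08 over the 10 genes and −0.16 over all genes tested. Between 1264 genes, for lin-54, and 3716 genes, for lin-9, had a larger log2 fold change.

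**Figure D1:**
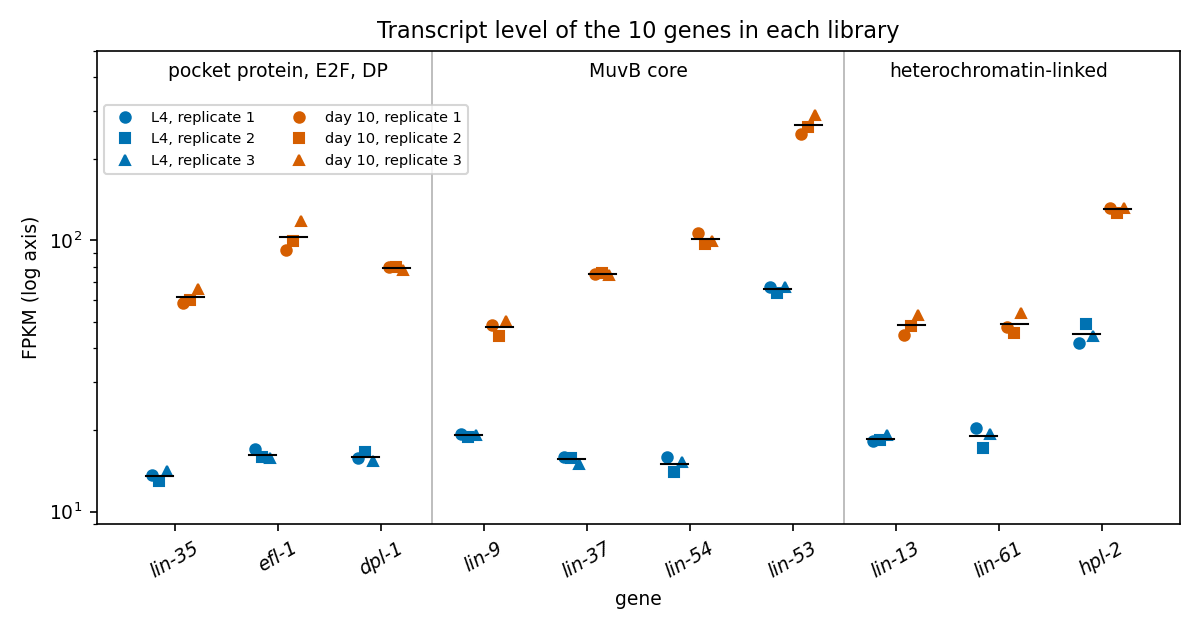
FPKM (log axis) of each of the 10 genes in the 3 L4 libraries (blue) and the 3 day 10 libraries (orange), with the replicate given by the marker and the mean by a black line. Every gene's day 10 libraries lie above its L4 libraries; lin-53 is the highest at both ages, at 65.9 FPKM in L4 and 266 at day 10.

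The pocket protein and its E2F and DP partners form the first group. The single pocket protein gene of the worm, lin-35 (WBGene00003020, I, 5807709 to 5815637, plus strand), is the counterpart of human RB1 and its relatives. Its level was 192, 197 and 203 CPM (counts scaled to a common library total, after TMM) in day 10 replicates 1, 2 and 3 and 43.6, 42.6 and 45.3 CPM in L4 replicates 1, 2 and 3. The ages were far apart and each age was tight, with a log2 fold change of 2.17 ± 0.03 (SE, n = 3 per age).

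The E2F factor efl-1 (WBGene00001161, V, 16958590 to 16965675, minus strand) pairs with a DP protein to bind DNA. It stood at 124, 134 and 149 CPM at day 10 and at 22.4, 21.5 and 20.9 CPM in L4, which gave the second largest rise of the 10 genes, a log2 fold change of 2.65 ± 0.08. It also had the widest spread of the 10 among the day 10 libraries, with replicate 3 the highest.

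The DP protein gene dpl-1 (WBGene00001061, II, 9169910 to 9172565, plus strand) held 178, 178 and 162 CPM at day 10 and 34.4, 37.2 and 33.7 CPM in L4. It rose by a log2 fold change of 2.30 ± 0.06, and here replicate 3 was the lowest day 10 library. The gene lies wholly within the span of T23G7.2 on the other strand, and their annotated exons share no base. T23G7.2 went the other way, from 36.6 ± 1.85 CPM in L4 to 25.7 ± 3.43 CPM at day 10 (mean ± SD).

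The MuvB core differed most among its own subunits. The gene lin-54 (WBGene00003037, IV, 13241044 to 13243401, plus strand) encodes the subunit that binds DNA through cysteine-rich domains. Its level was 166, 152 and 146 CPM at day 10 and 24.2, 22.1 and 23.4 CPM in L4, and its log2 fold change of 2.74 ± 0.07 was the largest of the 10. The subunit lin-9, a scaffold of the core in human cells (WBGene00002998, III, 8900237 to 8904131, minus strand) began from a higher count level in L4, at 44.3, 44.6 and 44.2 CPM, and reached only 115, 104 and 111 CPM at day 10. Its log2 fold change of 1.31 ± 0.04 was the smallest of the 10, and the L4 libraries differed by a log2 range of 0.01.

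The gene lin-37 (WBGene00003022, III, 7070890 to 7072552, minus strand) encodes a MuvB subunit that in mammals acts with the pocket proteins in repression. It stood at 79.0, 79.0 and 73.2 CPM at day 10 and at 16.2, 16.6 and 15.5 CPM in L4, a log2 fold change of 2.26 ± 0.05, close to those of lin-35 and dpl-1. The histone-binding protein gene lin-53 (WBGene00003036, I, 9618196 to 9619760, minus strand), the worm counterpart of RBBP4, also serves chromatin complexes other than DREAM. Its level was 366, 387 and 400.2 CPM at day 10 and 96.8, 94.7 and 97.5 CPM in L4, a log2 fold change of 1.997 ± 0.04. The remaining MuvB subunit, lin-52, which was not among the 10, rose from 9.54 ± 0.67 to 34.9 ± 1.90 CPM, a log2 fold change of 1.87 ± 0.07.

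The heterochromatin-linked genes rose by similar amounts to each other. The zinc finger protein LIN-13 has been found in a complex with LIN-61 and HPL-2. Its gene lin-13 (WBGene00003002, III, 7700338 to 7709491, minus strand) held 321, 345 and 357 CPM at day 10 and 128, 132 and 135 CPM in L4, a log2 fold change of 1.37 ± 0.05. The gene lin-61 (WBGene00003041, I, 7248827 to 7251282, minus strand) encodes a protein of MBT repeats that binds histone H3 methylated at lysine 9. Its level was 95.3, 90.4 and 100.5 CPM at day 10 and 39.3, 34.2 and 37.5 CPM in L4, a log2 fold change of 1.37 ± 0.07.

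The gene hpl-2 (WBGene00001996, III, 10752195 to 10755530, minus strand) encodes a worm heterochromatin protein 1, which reads the same histone mark. It stood at 119.6, 114 and 112 CPM at day 10 and at 37.0, 44.7 and 39.4 CPM in L4, a log2 fold change of 1.51 ± 0.08. Its L4 libraries spread by a log2 range of 0.27, the widest of the 10 genes at that age, with replicate 2 highest. None of the 10 genes had overlapping CPM ranges between the ages, as was so for 87.6% of all genes tested.

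Per length, the order of the 10 genes differed between the ages. On the FPKM scale, counts divided by gene length and library total, lin-53 was highest at both ages, at 65.9 ± 1.89 in L4 and 266 ± 21.1 at day 10, followed by hpl-2 at 45.2 ± 3.75 and 130.2 ± 3.36. In L4 the next were lin-9 at 19.1 ± 0.209, lin-61 at 18.9 ± 1.61 and lin-13 at 18.6 ± 0.521 FPKM, whose ranges overlapped from each to the next. Below them, efl-1, dpl-1, lin-37, lin-54 and lin-35 lay between 16.2 and 13.6 FPKM, and neighbours in that order also overlapped.

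At day 10 efl-1 and lin-54 stood above the others of that lower set. Mean FPKM was 103 ± 13.5 for efl-1 and 101.0 ± 4.59 for lin-54, with overlapping ranges, then 78.9 ± 1.19 for dpl-1, 75.1 ± 0.541 for lin-37 and 61.7 ± 4.01 for lin-35, with ranges that did not overlap from each to the next on the deposited scale. The genes lin-61, lin-13 and lin-9, which had come next after hpl-2 in L4, were the lowest at day 10, at 49.3 ± 4.35, 48.6 ± 4.26 and 47.9 ± 3.03 FPKM, and overlapped. The second place of hpl-2 rests on the length of 888 bases implied by the deposited FPKM. With the 1286 bases covered by its annotated exons, its level would be 89.9 at day 10, below lin-54 and efl-1, and 31.2 in L4, still second. The order of dpl-1 and lin-37 also turns with the length: over 940 exonic bases in place of 1030, lin-37 would stand at 82.3 at day 10, above dpl-1 at 78.9, and in L4 at 17.05, above dpl-1 at 15.9 and efl-1 at 15.4 over their own exonic bases.

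The same FPKM values can be written without any scaling between libraries, with each gene set against the geometric mean FPKM of the 10 genes in its own library. This restates the order above and is no separate test of it, and some genes must stand lower on it. On this relative log2 scale lin-54 stood 0.77 higher at day 10 than in L4, efl-1 0.68, dpl-1 0.33, lin-37 0.29 and lin-35 0.20 higher. The genes lin-9, lin-61, lin-13 and hpl-2 stood lower, with differences of −0.66, −0.60, −0.60 and −0.45. For these 9 genes the relative values of the ages did not overlap, and for lin-53, with a difference of 0.03, they did. No share over all genes was computed on this scale. On the CPM scale 87.6% of all genes tested did not overlap, so this count sets the 9 genes little apart. As a share of the summed FPKM of the 10 genes, efl-1 went from 6.65% ± 0.267 to 10.7% ± 0.900, lin-54 from 6.16% ± 0.344 to 10.5% ± 0.796, and hpl-2 from 18.5% ± 1.63 to 13.5% ± 0.582 (mean ± SD). The share of lin-53 was 27.03% ± 0.651 in L4 and 27.6% ± 1.01 at day 10.

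**Figure D2:**
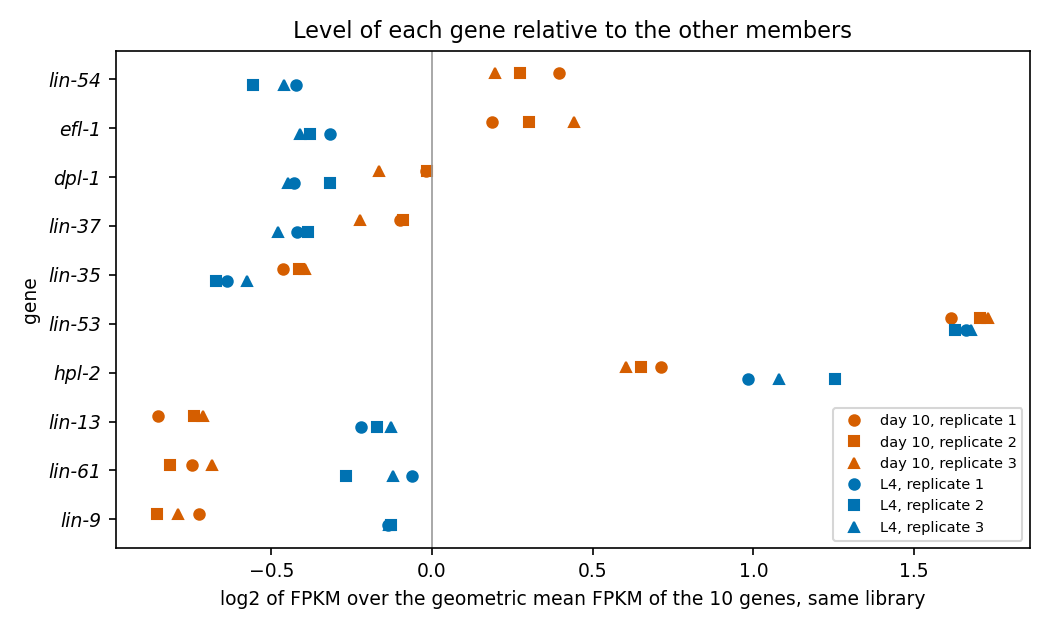
Level of each gene in each library as log2 of its FPKM over the geometric mean FPKM of the 10 genes in the same library, for L4 (blue) and day 10 (orange), with genes ordered by the difference between the ages. At the top, lin-54 and efl-1 are higher at day 10, by 0.77 and 0.68; at the bottom, lin-9, lin-61, lin-13 and hpl-2 are lower.

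Ratios within 8 pairs of partners or paralogues were compared by a two-sided exact permutation test of log2 FPKM ratios over the libraries, 3 against 3, which cannot give a p under 0.1. The ratio of lin-9 to lin-54 was 1.22, 1.35 and 1.25 in the L4 libraries and 0.459, 0.457 and 0.505 in the day 10 libraries. This was the largest difference among the 8 pairs, −1.43 on the log2 scale, with lin-9 the higher of these MuvB genes in every L4 library and the lower in every day 10 library (exact permutation p = 0.1, adjusted p = 0.133). The ratio of lin-35 to efl-1 was 0.802, 0.817 and 0.892 in L4 and 0.637, 0.609 and 0.561 at day 10. The pocket protein gene was therefore the lower of the pair at both ages, and further below at day 10, by a log2 difference of −0.48 (exact permutation p = 0.1, adjusted p = 0.133).

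For efl-1 over dpl-1, the dimer partners, the ratio was 1.08, 0.957 and 1.03 in L4 and 1.15, 1.25 and 1.52 at day 10. The difference was 0.35 on the log2 scale (exact permutation p = 0.1, adjusted p = 0.133), and day 10 replicate 3 stood above the other day 10 libraries. In the heterochromatin-linked group the ages overlapped. The ratio of lin-13 to hpl-2 ran from 0.372 to 0.435 in L4 and from 0.338 to 0.402 at day 10 (log2 difference −0.15, exact permutation p = 0.3, adjusted p = 0.343). That of lin-61 to hpl-2 ran from 0.348 to 0.485 and from 0.362 to 0.410 (log2 difference −0.15, exact permutation p = 0.4, adjusted p = 0.4). With 3 libraries an age, a high p here does not show that the ratios were equal.

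Paralogues of 3 members were set beside them. The other heterochromatin protein 1 gene, hpl-1, was low, at 5.63 ± 0.539 CPM in L4 and 8.69 ± 0.521 at day 10, a difference called in edgeR's test but not with upper-quartile factors (adjusted p = 0.3). The ratio of hpl-2 to hpl-1 went from 6.09, 6.48 and 6.86 in L4 to 12.5, 11.1 and 12.3 at day 10, without overlap (exact permutation p = 0.1, adjusted p = 0.133). The second E2F gene efl-2 rose from 14.9 ± 0.540 to 44.4 ± 4.15 CPM, less than efl-1, whose FPKM ratio to it went from 1.37, 1.25 and 1.19 to 2.71, 2.59 and 2.70 (exact permutation p = 0.1, adjusted p = 0.133). The gene rba-1, a close relative of lin-53 that lies 88 bases downstream of it on the same strand, rose from 37.6 ± 0.905 to 160.5 ± 1.62 CPM. The ratio of lin-53 to rba-1 was 2.38, 2.38 and 2.33 in L4 and 2.12, 2.20 and 2.32 at day 10, so that the day 10 values lay just below the L4 values (log2 difference −0.10, exact permutation p = 0.1, adjusted p = 0.133). The labels do not say how reads that match both of these genes were counted.

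**Figure D3:**
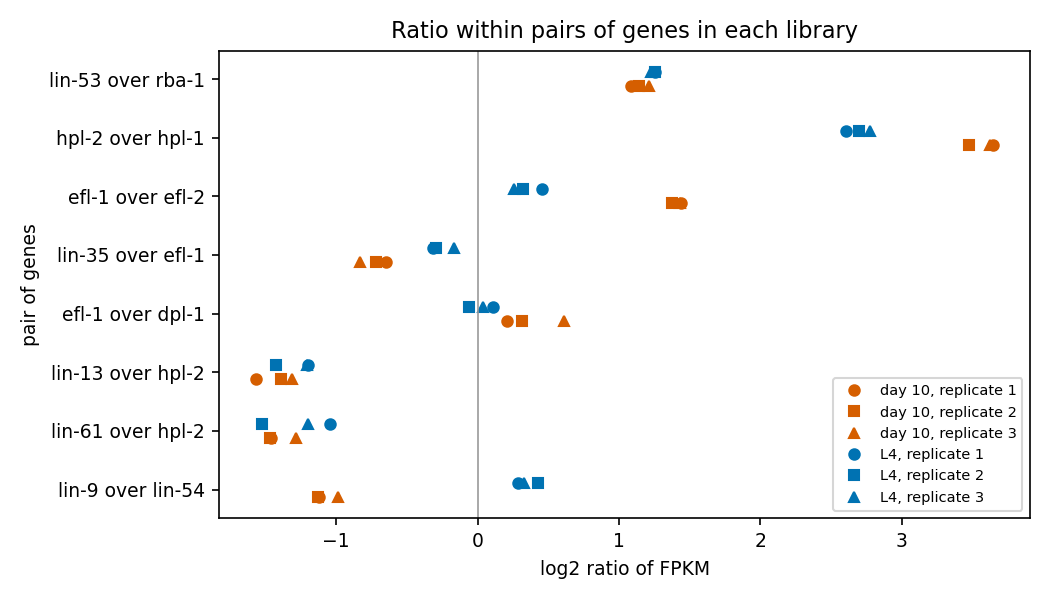
Log2 ratio of FPKM within 8 pairs of genes in each library, L4 in blue and day 10 in orange, with the vertical line at equal levels. The lin-9 over lin-54 ratio crosses that line between the ages, while lin-13 and lin-61 over hpl-2 overlap between the ages.

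The wider synMuv pathway was also higher at day 10, where 40.5% of all genes tested were called higher. Of 11 further synMuv B genes all 11 rose, by log2 fold changes of 1.28 to 1.88 with a median of 1.71, against −0.16 for all genes tested. Among them let-418, a Mi-2 chromatin remodeller, rose from 206 ± 8.19 to 505 ± 22.9 CPM, and tam-1, which restrains silencing of repeated transgenes, from 138 ± 5.70 to 445 ± 23.6 CPM. The THAP-domain gene lin-36 rose from 64.5 ± 0.599 to 237 ± 12.5 CPM. All 4 synMuv A genes rose, with a median of 1.39, from 0.77 for lin-56 to 1.87 for lin-15A; the call of lin-56 was lost with upper-quartile factors (edgeR's adjusted p = 0.059). All 4 synMuv C genes, which belong to a Tip60-type acetyltransferase complex, rose with a median of 1.501.

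Genes of the chromatin complexes that overlap with the class were also higher, where 40.5% of all genes tested were called higher. Of the NuRD-related genes, let-418, mep-1 and hda-1 were already counted with the further synMuv B genes. So were met-2 and lin-65 of the lysine 9 list. All 7 listed genes related to the NuRD complex rose, their median log2 fold change being 1.36, and the least were chd-3 at 0.62, a call lost with upper-quartile factors (edgeR's adjusted p = 0.26), and dcp-66 at 0.71. All 5 genes of histone H3 lysine 9 methylation and of anchoring of that chromatin rose, with a median of 1.89. Within that list the methyltransferase set-25 rose from 15.2 ± 1.02 to 99.2 ± 1.77 CPM, a log2 fold change of 2.71 ± 0.06, and the methyltransferase met-2 from 71.0 ± 1.59 to 172 ± 0.366 CPM, a log2 fold change of 1.28 ± 0.02. All 5 genes whose loss suppresses synMuv phenotypes rose, with a median of 2.005; the histone methyltransferase mes-4 and the chromodomain gene mrg-1 rose by log2 fold changes of 2.20 ± 0.05 and 2.27 ± 0.07.

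**Figure D4:**
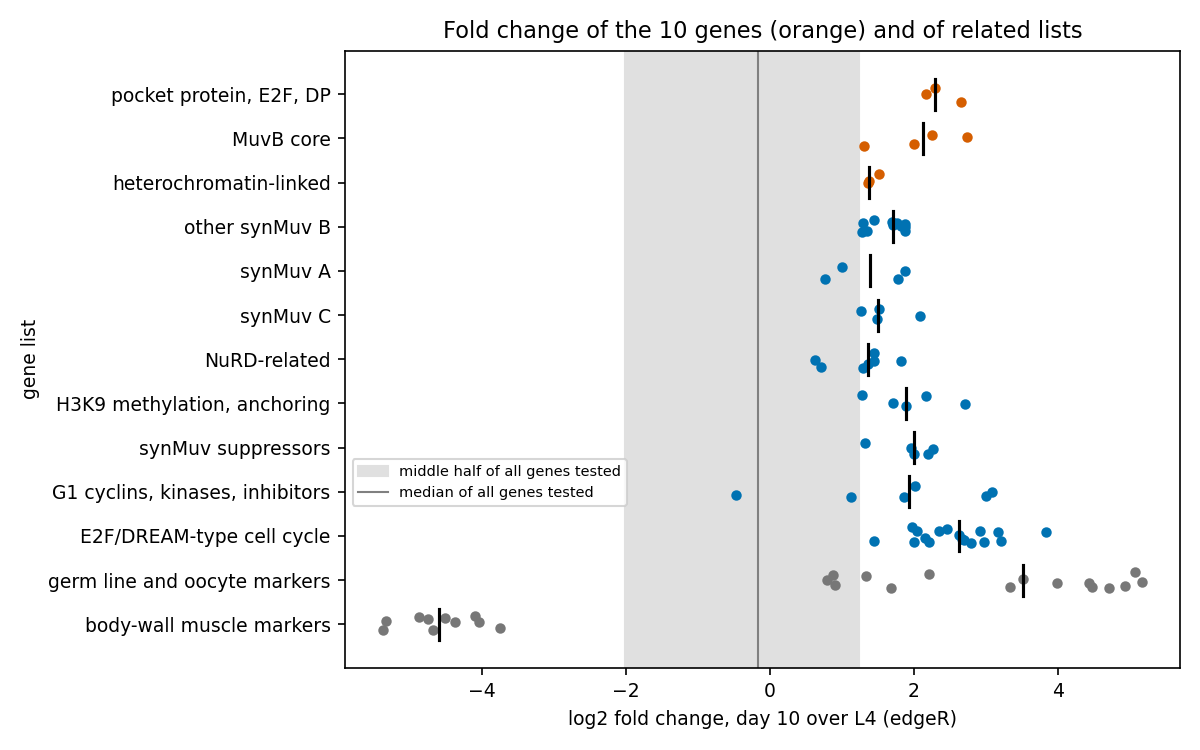
Log2 fold change of day 10 over L4 from edgeR for each gene of 13 lists, one point per gene, with the list median as a black bar, the median of all genes tested as a grey line and their middle quartiles as a grey band. The 10 genes (orange) lie at 1.31 to 2.74, below most oocyte markers and above the median of all genes, −0.16.

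Genes upstream of the complex, which act on the pocket protein, were mostly higher. Of 6 G1 cyclins, kinases and inhibitors, 5 rose, where 40.5% of all genes tested were called higher. Cyclin D cyd-1 rose from 5.84 ± 1.23 to 50.03 ± 13.8 CPM, its kinase cdk-4 from 1.85 ± 0.612 to 14.9 ± 1.62 CPM, and cyclin E cye-1 from 65.2 ± 4.36 to 262 ± 18.8 CPM. The kinase inhibitor cki-1, which blocks G1 kinases, was the exception, at 17.0 ± 0.957 CPM in L4 and 12.3 ± 3.38 CPM at day 10 (edgeR's adjusted p = 0.052); it passed the threshold as lower without day 10 replicate 3, with upper-quartile factors, with a stricter filter and with no filter. The related inhibitor cki-2 rose from 33.4 ± 0.539 to 72.9 ± 7.87 CPM.

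Downstream, all 17 listed cell-cycle genes of the kinds that E2F and DREAM regulate in animals rose, where 40.5% of all genes tested were called higher. Their log2 fold changes ran from 1.44 to 3.84 (median 2.62). Cyclin cyb-3 rose by 3.84 ± 0.03, the ribonucleotide reductase subunit rnr-2 by 3.21 ± 0.06 and the replication helicase subunit mcm-7 by 3.16 ± 0.06. The vulval inducer lin-3, an EGF-like ligand that synMuv genes keep low in the epidermis, rose from 12.1 ± 0.521 to 60.6 ± 4.40 CPM. The germ line P granule genes that appear in somatic tissue of synMuv B mutants did not follow as a group. The genes pgl-1 and pgl-3 rose by log2 fold changes of 0.87 ± 0.08 and 1.14 ± 0.13, while glh-1, a helicase gene, fell, with a log2 fold change of −0.34, a call that was lost with DESeq2 (adjusted p = 0.074).

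Germ line and oocyte markers moved with these genes, and most listed markers of body-wall muscle, intestine and epidermis moved against them. No list covered other somatic tissues. All 15 germ line and oocyte markers rose, where 40.5% of all genes tested were called higher. Their summed level was 1286 to 1314 CPM in the L4 libraries and 11515 to 16337 CPM at day 10. All 10 body-wall muscle markers fell, with a summed level of 15926 to 17195 CPM in L4 and 610 to 701 CPM at day 10. Of 10 intestinal markers 8 fell and 1 rose, and of 10 epidermal markers 7 fell and 2 rose, where 45.0% of all genes tested were called lower; all 9 sperm markers matched to a gene fell. In whole worms more cells of a type and more RNA per cell cannot be told apart, and the part of the share of germ line or of embryos in the rise of the 10 genes was not tested.

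Across the day 10 libraries some of the 10 genes had the same order as the germ line and oocyte markers and others did not. The summed marker level was lowest in replicate 3, at 11515 CPM, against 16337 and 15480 CPM in replicates 1 and 2, while the summed level of the 10 genes was 1756, 1780 and 1815 CPM in replicates 1, 2 and 3. The genes lin-35, efl-1, lin-53, lin-13 and lin-61 were highest in day 10 replicate 3, and dpl-1, lin-9, lin-37, lin-54 and hpl-2 in replicate 1. Of the 6842 genes averaging at least 20 CPM, 42.8% were highest in replicate 1, 24.98% in replicate 2 and 32.2% in replicate 3. Which replicate was highest therefore sets the 10 genes little apart. Like the summed markers, dpl-1, lin-37, lin-54 and hpl-2 were lowest in replicate 3 with replicate 2 between. Replicates 1 and 2 were nearly tied for dpl-1, at 178.2 and 177.7 CPM, and for lin-37, at 79.01 and 79.00 CPM, so their order there means little. These differences were small, with log2 ranges of 0.08 to 0.27 among the day 10 libraries and a median of 0.13, where the median over the 6842 genes with a mean of at least 20 CPM was 0.19.

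The marker lists themselves were uneven. The meiotic chromosome genes htp-3, him-3 and syp-1 act earlier in the germ line than oocyte products. They rose by log2 fold changes of 1.33, 0.91 and 0.87. These values lay below the 1.997 to 2.74 of lin-35, efl-1, dpl-1, lin-37, lin-54 and lin-53. Among the remaining members, lin-9 at 1.31 lay below htp-3, and lin-13, lin-61 and hpl-2 at 1.37, 1.37 and 1.51 lay above it. The smallest rise of the 15 germ line and oocyte markers, 0.80, belonged to a gene other than htp-3, him-3 and syp-1. Of the 15, 12 were called and at least 2-fold higher. Some oocyte products rose more, such as oma-2 at 5.17 and puf-5 at 5.07.

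By likeness of profile over the 6 libraries, the 5 genes nearest to lin-35 among 6797 candidates were rpa-1, fcho-1, bath-42, K04C2.3 and sgo-1. The measure was the root mean square distance between log2 CPM values centred on each gene's mean, and it ran from 0.03 for rpa-1 to 0.05 for sgo-1. The gene rpa-1 stood at 115 ± 0.925 CPM in L4 and 505 ± 17.4 CPM at day 10. Of the other 9 members, lin-37 and lin-53 were nearest to lin-35, with distances of 0.09 each and ranks of 112 and 115, and lin-9 was the farthest, with a distance of 0.43 and a rank of 1764.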

How the data were processed

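RNA of whole worms was sequenced in 6 libraries of 2 ages, 3 each, grouped by title. Per the submitters' processing notes the workflow named CASAVA 1.8, HISAT2 and HTSeq; the build and annotation are not named in those notes. The authors deposited raw counts per gene, totalling 19576201 to 25616846 per library, and FPKM values, which equal the counts over 1 length per gene and the library total. The authors' deposited table of the comparison holds a mean signal (scaled counts) per age and adjusted p-values; by it all 10 genes were higher at day 10, by ratios of 2.78 to 7.48.

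Gene identifiers were matched to symbols and positions in Ensembl release 115 (WBcel235), which need not be the build used for counting. Counts were tested with edgeR 4.0.16 in R 4.3.3 (TMM scaling, default filter, robust quasi-likelihood fits, Benjamini-Hochberg adjustment over 15956 genes at 0.05). Standard errors of log2 fold changes combine both ages' variances of log2(CPM + 0.5) between libraries. FPKM ratios used a pseudocount of 0.01 and exact permutation tests, adjusted over 8 pairs. Counts of list members stand beside those over all genes, with no set test. The members, lists and tests were chosen with earlier results of these data known. Genes were named as the 10 members, the highest and the deviating members of each list, and the 5 nearest to lin-35; other genes named were chosen after their values were seen. The sperm marker symbol ssp-9 matched more than 1 identifier and was left out. On simulated counts with 200 changed genes, edgeR recovered 74% of 50 genes changed 1.5-fold and 100% of those changed 2-fold, 4-fold or 8-fold, with 4 false calls; far fewer genes changed there than here. No pair of libraries of an age agreed within sampling noise. Alternatives used DESeq2 1.42.0 and limma 3.58.1.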

Additional observations from a re-analysis of the deposited data

How the results depend on the processing

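All 10 genes kept their direction and their call under the 14 alternatives, 140 values in all, each by the alternative's own test. The alternatives were other scaling factors, other filters, DESeq2, limma on log2(FPKM + 0.1), the replicate block and each library left out. Leaving out 1 library gave log2 fold changes of 1.30 to 1.37 for lin-9 and 2.69 to 2.80 for lin-54. The scaling moved all genes together. The median over all genes was −0.16 with TMM, 0.00 under the size factors of DESeq2 and −0.62 under upper-quartile factors, and the median of the 10 genes stood 2.25 above it in each case. With upper-quartile factors the log2 fold change of lin-9 was 0.86, and 7 of the 10 genes, not 10, were at least 2-fold higher. The 80 alternative values of the pair ratios kept their sign. Of 504 alternative counts of list members, 10 moved by over 1.5 times, all of them counts of lower genes. Counts of higher genes changed by less, and only with upper-quartile factors: lin-56, hpl-1 and chd-3 lost their calls there, so that 3 of 4 synMuv A genes, 2 of 3 paralogues and 6 of 7 NuRD-related genes, and 56 rather than 59 of the 61 pathway genes outside the 10, were called higher. The count of lower G1 genes, 0, became 1, that of cki-1, without day 10 replicate 3 and under 3 settings (upper-quartile factors, at least 1 CPM in 3 libraries, no filter), which took the count over the 61 pathway genes outside the 10 from 1 to 2. With DESeq2 that count and the count for the P granule genes, 1 in edgeR as glh-1, were 0.

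Replicate numbers are shared between the ages, but deviations of same-numbered libraries correlated at 0.02, 0.05 and −0.01 across genes, so the numbers were not taken as pairs. With the replicate block the log2 fold change of lin-35 was 2.17 and that of lin-9 was 1.31, and all 10 genes stayed higher. Depth was not limiting for the 10 genes, since the lowest count was 308, for lin-37 in L4 replicate 3.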

Other observations

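The 10 genes lie on chromosomes I (3 genes), II (1), III (4), IV (1) and V (1), and none lies on X, which holds 13.9% of the tested genes with a position. Of tested genes on X 25.8% were called higher at day 10, where the share over all genes tested was 40.5%. It was 50.04% on III, 49.0% on I, 43.9% on II, 39.1% on IV and 34.9% on V. Other synMuv genes do lie on X. The neighbouring genes lin-15B and lin-15A, of class B and class A, both rose by a log2 fold change of 1.87, lin-15B to 95.7 ± 9.99 CPM from 26.1 ± 2.43 and lin-15A to 33.3 ± 2.81 CPM from 9.10 ± 1.24.

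Protein-coding neighbours within 1000 bases on the same strand all rose with their member, but not always by a similar amount. Upstream of hpl-2 by 93 bases, rnf-113 rose by a log2 fold change of 1.59, near that of hpl-2, 1.51. Upstream of lin-37 by 60 bases, ZK418.5 rose by 0.55, against 2.26 for lin-37. Downstream of lin-61 by 137 bases, adsl-1 rose by 0.25, against 1.37 for lin-61. Downstream of lin-54 by 273 and 922 bases, JC8.4 and cox-11 rose by 1.57 and 0.48, against 2.74 for lin-54. The gene rba-1, downstream of lin-53, rose by 2.09, against 1.997 for lin-53. The gene lin-35 shares 29 exonic bases with hmg-3 on the other strand, and C32F10.4 lies within its span without sharing an exonic base. The gene lin-13 shares 44 exonic bases with the pseudogene WBGene00015991 on the other strand, which fell from 6.004 ± 1.47 CPM in L4 to 0.756 ± 0.255 CPM at day 10. The labels do not say whether the libraries kept strand.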
